A study of Caenorhabditis elegans with 54 samples.

Results

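Loss of a pair of Argonaute proteins was compared in Caenorhabditis elegans with loss of the scaffold on which 22G-RNAs, the secondary small RNAs of this worm, are amplified. The first strain was the double mutant prg-1_hrde-1, prg-1(n4357) with hrde-1(tm1200), and it was set against eri-6[e-f]_mut-16, which carries the deletion eri-6[e-f](cmp261) and mut-16(pk710). Each strain has 3 small RNA libraries and 3 mRNA libraries, so the comparison uses 12 of the 54 libraries of the series. They were chosen by strain label alone, from the second of the 2 sets of libraries. All 12 came from whole day 1 adults grown at 20 °C and collected at about 64 h, with 8000 animals to a sample. RNA of 18 to 30 nt was cut from a gel for the small RNA libraries, and mRNA was bound to oligo(dT) beads. The strains differ in all these alleles at once, and neither wild type nor a mut-16 single mutant was analysed here. The eri-6[e-f] deletion is present in the mut-16 strain and not in prg-1_hrde-1, while sosi-1, a gene deleted in other strains of the series, is intact in both. Levels in eri-6[e-f], which has the deletion with mut-16 intact, are given after both strains in places, as 3 further libraries outside the comparison. Nothing in the labels says whether the 3 replicates are separate cultures, so each p measures spread between libraries and not between known separate cultures. For p-values of the edgeR fit, that spread was estimated from all 24 second-set libraries of an assay. It therefore includes strains outside the comparison.

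In C. elegans, Argonaute proteins are guided to transcripts by several classes of small RNA. PRG-1 is the Piwi protein of the germline, which is guided by the 21U-RNAs, the piRNAs of worms, and its targets become templates for RNA-dependent RNA polymerases that make 22G-RNAs, secondary small RNAs antisense to the target. The 22G-RNAs are bound by worm-specific Argonautes (WAGOs), among them HRDE-1, which carries them into germline nuclei and is known for silencing that is passed to progeny. MUT-16 is the scaffold of mutator foci, perinuclear bodies beside the P granules where many 22G-RNAs are amplified, including those downstream of ERGO-1, the Argonaute of one class of 26G-RNAs. A further Argonaute, CSR-1, binds 22G-RNAs against most expressed germline genes, and these do not need mutator foci. The files give small RNA counts per gene, not divided by length, first base or strand, so a 22G-RNA cannot be told from other small RNAs of the same gene, nor reads of overlapping or antisense genes from each other.

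The libraries held between 11417384 and 38473158 counts in small RNA and between 16305343 and 44302033 counts in mRNA, the lowest and highest small RNA totals both being those of prg-1_hrde-1. Ribosomal RNA took 1.29, 1.80 and 0.615% of mRNA counts in prg-1_hrde-1, against 3.33, 1.58 and 3.61% in eri-6[e-f]_mut-16, with overlap. Small RNA replicate 1 of prg-1_hrde-1 stood apart from its group. An entry named eri6.1, at the eri-6 locus by its name and of an extent not given in the sources used here, took 18.99% of its counts, against 0.0587 and 0.0785% in replicates 2 and 3. It also held 647163 microRNA counts (mir-8203 left out), against 1758 and 1233 in the other prg-1_hrde-1 libraries and 1434 to 1818 in eri-6[e-f]_mut-16. Among 3718 features with a mean of at least 50 CPM (counts scaled to a common library size) in prg-1_hrde-1, 41 were more than 4-fold higher in that library than in the mean of replicates 2 and 3 and 4 were lower, and 11 of the 41 were microRNAs. Small RNA results are therefore given with that library and again without it. Levels are CPM scaled by TMM unless a share is named, and log2 fold changes are prg-1_hrde-1 over eri-6[e-f]_mut-16 with the standard error of the fit. Of the 269 named features called in small RNA, 249 were called the same way without that library and 20 were not called, and the median move of the fold change was 0.11. A feature was called higher or lower when its Benjamini-Hochberg adjusted p in edgeR was below 0.05 and it differed by at least 2-fold. Wherever a gene list below has 0 calls in a direction, DESeq2 gave 0 too, apart from 1 higher in mRNA each for the mutator list and the linc genes.

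At the mutated loci, small RNA and mRNA did not change alike. Small RNA of hrde-1 was 448, 547 and 480.0 CPM in prg-1_hrde-1, against 1690.0, 1691 and 1650.2 CPM in eri-6[e-f]_mut-16, a log2 fold change of -1.77 ± 0.08. Small RNA of prg-1 was 696, 862 and 741 CPM in prg-1_hrde-1, against 1682, 1741 and 1707 CPM in eri-6[e-f]_mut-16 (-1.16 ± 0.10). Both genes were called lower in the strain that carries their deletions, with no overlap of libraries, and eri-6[e-f] averaged 923 ± 38.1 and 918 ± 28.3 CPM for hrde-1 and prg-1 (SD, n = 3). Messenger RNA of prg-1 was 99.1, 78.2 and 75.1 CPM in prg-1_hrde-1, against 328, 148 and 183 CPM in eri-6[e-f]_mut-16 (-1.38 ± 0.26, adjusted p = 6.39e-05). That of hrde-1, at 327, 240.1 and 199 CPM in prg-1_hrde-1, against 739, 255 and 317 CPM in eri-6[e-f]_mut-16, overlapped and was not called (-0.77 ± 0.33, adjusted p = 0.0450). Counts over a whole gene do not say whether the deleted part is transcribed. The deletions and the pk710 allele were therefore not checked base by base. For mut-16 the small RNA was 200, 228 and 208 CPM in prg-1_hrde-1, against 96.8, 94.1 and 88.99 CPM in eri-6[e-f]_mut-16 (1.19 ± 0.05), called higher with no overlap. Its mRNA, at 67.9, 48.4 and 22.1 CPM in prg-1_hrde-1, against 34.5, 20.2 and 16.2 CPM in eri-6[e-f]_mut-16, overlapped and was not called (0.96 ± 0.31). The eri6.1 entry had 285340, 837 and 1012 CPM of small RNA in prg-1_hrde-1, against 111, 23.6 and 101 CPM in eri-6[e-f]_mut-16 (10.26 ± 1.85, and 3.59 without replicate 1), and 10.3, 7.83 and 9.90 CPM of mRNA in prg-1_hrde-1, against 0.589, 0.788 and 0.513 CPM in eri-6[e-f]_mut-16 (3.85 ± 0.22), both called higher in the strain without the eri-6[e-f] deletion. The eri-6[e-f] libraries averaged 0.126 ± 0.0618 CPM of eri6.1 mRNA. The files do not show whether sequence counted under eri6.1 lies within the deletion, and this was not tested. The second entry of that locus, eri.67, had 32.4, 23.7 and 27.9 CPM of small RNA in prg-1_hrde-1, against 7.47, 7.42 and 6.11 CPM in eri-6[e-f]_mut-16 (1.98 ± 0.09), and its mRNA was not called (0.47 ± 0.23). At sosi-1 the strains differed by less than 2-fold in both assays, with 115, 154 and 139 CPM of small RNA in prg-1_hrde-1, against 84.7, 85.6 and 88.1 CPM in eri-6[e-f]_mut-16 (0.66 ± 0.18) and 17.5, 15.97 and 7.73 CPM of mRNA in prg-1_hrde-1, against 16.2, 8.41 and 9.88 CPM in eri-6[e-f]_mut-16 (0.26 ± 0.31), and neither was called. Both stood apart from eri-6[e-f], which had 694, 698 and 708 CPM of sosi-1 small RNA and 0.124 ± 0.121 CPM of its mRNA.

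Far more genes carried more small RNA in prg-1_hrde-1 than carried less. Of 15380 features tested, 5598 (36.4%) were called higher and 620 (4.03%) lower, and without replicate 1 of prg-1_hrde-1 the counts were 5238 (33.2%) and 724 (4.59%) of 15788. The median log2 fold change over all features was 0.30 (0.15 without replicate 1), and 10775 features had libraries that did not overlap between the strains. The split depends on the scaling. With library sizes alone 4528 features were higher and 4597 lower, with the median of all features at −0.38, and with the microRNA counts as the scale 1200 were higher and 224 lower, with the median at −0.52. That scale rests on replicate 1 of prg-1_hrde-1, the library with the many microRNA counts: without it microRNA scaling gave 4447 higher and 284 lower, with the median at 0.15. Among the lists described below, the median small RNA fold change of the ERGO-1 targets, histones, sperm genes, vitellogenins, intestinal genes and collagens stayed above 0 under both of these scalings. With microRNA scaling and replicate 1 included fewer of their members were called higher, namely 9 major sperm proteins in place of 31, 3 spe and fer genes in place of 31, 1 vitellogenin in place of 6, 3 intestinal genes in place of 13, 3 WAGO and HRDE-1 targets in place of 5, 22 collagens in place of 67 and 8 histones in place of 53. With microRNA scaling and without replicate 1 the counts in the same order were 30, 30, 5, 12, 5, 47 and 43. Most of that loss thus came with this library.

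Which features these were was read against lists called in other libraries of the series. Between sosi-1 and sosi-1_mut-16, a pair that differs only by mut-16(pk710), 6416 features had less small RNA in sosi-1_mut-16. They took 49.1, 40.2 and 39.6% of small RNA counts in prg-1_hrde-1, against 2.47, 2.21 and 2.30% in eri-6[e-f]_mut-16. The first of these values includes eri6.1, a member of the list. With that entry left out of all libraries the shares were 37.1, 40.2 and 39.5% in prg-1_hrde-1, against 2.45, 2.21 and 2.29% in eri-6[e-f]_mut-16. In eri-6[e-f] they took 45.1, 45.4 and 44.8%, so the prg-1_hrde-1 libraries were near eri-6[e-f] in this share and the mut-16 strain was not. Within the comparison, 3378 of the 6416 were called higher and 185 lower, with a median log2 fold change of 1.59 (3095 and 249, with a median of 1.34, without replicate 1). A further 2131 features had more small RNA in sosi-1_mut-16, and 1144 of them were higher in prg-1_hrde-1 and 148 lower, with a median of 1.59 (1130 and 143, with a median of 1.49, without replicate 1). Both the list that goes down with mut-16 loss and the list that goes up with it thus had a median above that of all features here. Of the first list 52.7% were called higher and 2.88% lower, and of the second 53.7 and 6.9%, beside 36.4 and 4.03% of all features.

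The 6416 features were split by what those that could be tested there did between the single mutants prg-1 and ergo-1, whose 6 libraries form the first set. For those libraries the labels name both 20 °C and 25 °C without saying which was which, so temperature and genotype cannot be told apart there. Of the 6416, 3105 also had less small RNA in prg-1 than in ergo-1, and 1154 of these were called higher and 157 lower in prg-1_hrde-1, with a median of 0.71 that was −0.25 with microRNA scaling (0.47 when replicate 1 was also left out). Another 469 had more small RNA in prg-1, and 438 of these were higher and 2 lower, with a median of 5.50. The 1013 that were not called between the single mutants had 860 higher and 5 lower, with a median of 3.64. The other 1829 of the 6416 were not tested between the single mutants, and 926 of these were higher and 21 lower, with a median of 1.69. Without replicate 1 the counts were 1017 and 200, 432 and 2, 848 and 7, and 798 and 40. The part shared with the prg-1 list thus had the lowest median of these 4 parts. Of its features 37.2% were higher and 5.06% lower, near the 36.4 and 4.03% of all features.

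**Figure D1:**
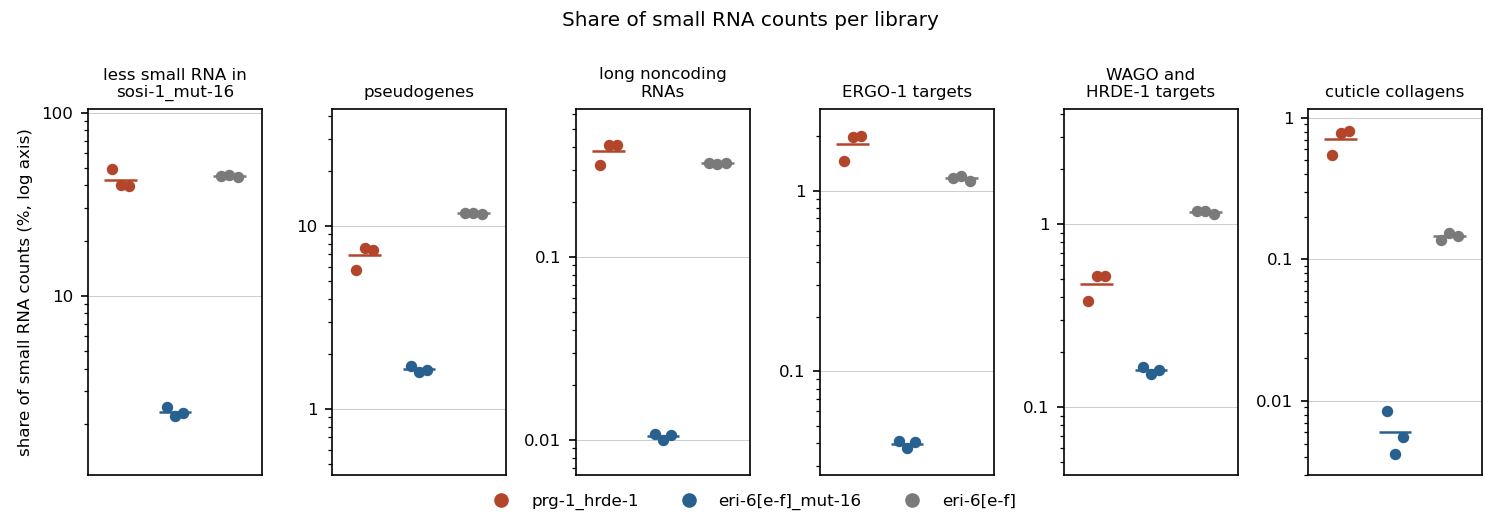
Share of small RNA counts (%, log axis, each panel with its own range) on 6 groups of features in the 3 libraries of prg-1_hrde-1, of eri-6[e-f]_mut-16 and of eri-6[e-f]; points are libraries and bars are means. The first panel shows the 6416 features with less small RNA in sosi-1_mut-16 than in sosi-1, which took 39.6 to 49.1% of counts in prg-1_hrde-1 and 2.21 to 2.47% in eri-6[e-f]_mut-16 (the 49.1% is replicate 1 and would be 37.1% without the entry eri6.1), and in every panel the prg-1_hrde-1 libraries lie above the eri-6[e-f]_mut-16 libraries.

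By annotation, long noncoding RNAs and pseudogenes took a larger share of small RNA in prg-1_hrde-1. Long noncoding RNAs took 0.317, 0.411 and 0.408% of small RNA counts in prg-1_hrde-1, against 0.0107, 0.00995 and 0.0107% in eri-6[e-f]_mut-16, and 42 of 60 tested were called higher (70%) and 1 lower (1.67%), beside 36.4 and 4.03% of all features. Pseudogenes took 5.77, 7.58 and 7.37% in prg-1_hrde-1, against 1.71, 1.59 and 1.64% in eri-6[e-f]_mut-16, and 451 of 980 tested were higher (46%) and 77 lower (7.86%), both above the shares over all features. In both classes the strains did not overlap, and the exact two-sided permutation p was 0.1, the smallest that 3 against 3 libraries can give. Pseudogene small RNA was at 11.7 to 11.8% in eri-6[e-f], above both strains, whereas that of long noncoding RNAs, at 0.323 to 0.328%, lay within the range of prg-1_hrde-1. The long intergenic noncoding RNAs, named linc in the files, had a summed level of 2018 to 2324 CPM in prg-1_hrde-1, against 31.7 to 35.5 CPM in eri-6[e-f]_mut-16. Of 170 in the files 49 were tested, 32 were called higher and 1 lower. The most extreme fold among those named was that of linc-8, with 120.2, 119.8 and 103 CPM in prg-1_hrde-1, against 0.151, 0.0345 and 0.0657 CPM in eri-6[e-f]_mut-16 (10.57 ± 0.29). For linc-22 the values were 1394, 1536 and 1489 CPM in prg-1_hrde-1, against 3.24, 1.79 and 1.45 CPM in eri-6[e-f]_mut-16 (9.48 ± 0.22). Its mRNA-library level was below 1 CPM in all 6 libraries and was not called (-0.47 ± 0.40), while linc-63 had 154, 254 and 210.2 CPM of small RNA in prg-1_hrde-1, against 3.24, 3.14 and 3.61 CPM in eri-6[e-f]_mut-16 (5.96 ± 0.22) and was called lower in mRNA, with 1.36, 1.62 and 1.31 CPM in prg-1_hrde-1, against 5.67, 5.04 and 5.84 CPM in eri-6[e-f]_mut-16 (-1.95 ± 0.23).

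In mRNA, 3813 of 15376 features (24.8%) were called higher in prg-1_hrde-1 and 1840 (12%) lower, with a median log2 fold change of 0.00 and 8984 features whose libraries did not overlap. With library sizes alone the counts were 5614 higher and 548 lower and the median of all features moved by 0.54, so values near −0.5 below lie near 0 under that scaling. Their distance from the median of all features is about the same. The features with less small RNA in sosi-1_mut-16, the mut-16 loss list above, were called higher in 1115 and lower in 595 of 4899 tested in mRNA, with a median of 0.27. These are 22.8 and 12.15%, near the 24.8 and 12% of all features. Its part with more small RNA in prg-1 than in ergo-1 had 44 higher (12.4%) and 101 lower (28.4%) of 356, with a median of −0.40 that was above 0 with library sizes alone. The features with more small RNA in sosi-1_mut-16 had 1008 higher (55.4%) and 182 lower (10.01%) of 1819, with a median of 2.05. Those with more small RNA in prg-1 than in ergo-1 had 967 higher (61.2%) and 170 lower (10.8%) of 1579, and the median was 2.34.

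The known targets of ERGO-1, the Argonaute that takes its 26G-RNAs from the ERI pathway in oocytes and embryos, had much more small RNA in prg-1_hrde-1. The list was compiled from general knowledge of the pathway, but with earlier results of these data known, so its counts are descriptive. All 25 in it were tested and 25 were called higher, beside 36.4% of all features. Their median log2 fold change was 5.96, beside 0.30 for all features tested. They took 1.46, 1.98 and 1.99% of small RNA counts in prg-1_hrde-1, against 0.0409, 0.0373 and 0.0405% in eri-6[e-f]_mut-16. The small RNA of Y37E11B.2 was 2798, 3631 and 3274 CPM in prg-1_hrde-1, against 13.2, 8.91 and 11.2 CPM in eri-6[e-f]_mut-16 (8.21 ± 0.17). That of C44B11.6 was 2755, 2867 and 2885 CPM in prg-1_hrde-1, against 12.9, 8.21 and 10.8 CPM in eri-6[e-f]_mut-16 (8.09 ± 0.18), and that of T08B6.2 was 142.5, 175 and 158 CPM in prg-1_hrde-1, against 0.151, 0 and 0.0657 CPM in eri-6[e-f]_mut-16 (11.41 ± 0.41). In each of these all prg-1_hrde-1 libraries lay above all eri-6[e-f]_mut-16 libraries, by more than 100-fold in the means. The smallest differences were those of F52D2.6, with 8.20, 9.003 and 7.79 CPM in prg-1_hrde-1, against 4.68, 2.90 and 3.75 CPM in eri-6[e-f]_mut-16 (1.19 ± 0.18), and of F39F10.4 (2.01 ± 0.22) and E01G4.5 (2.47 ± 0.13). Levels in eri-6[e-f] differed by gene, at 1184 ± 61.8 CPM for Y37E11B.2, below prg-1_hrde-1, and at 1143 ± 51.7 CPM for E01G4.5, above its 57.4, 74.5 and 67.8 CPM in prg-1_hrde-1.

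Messenger RNA of the same genes differed less. Most single genes had a negative value. Of 23 tested, 8 were called lower in prg-1_hrde-1 (34.8%, beside 12% of all features) and 0 higher (1 at an unadjusted p below 0.05), with a median of −0.81. Their summed level, scaled by TMM like the fold changes, was 304 to 508 CPM in prg-1_hrde-1, against 438 to 665 CPM in eri-6[e-f]_mut-16, with overlap. As a share of mRNA counts, which is not scaled by TMM, the sum was not lower. That share stood at 0.0421, 0.0596 and 0.0639% in prg-1_hrde-1, against 0.0395, 0.0610 and 0.0547% in eri-6[e-f]_mut-16, with overlap (exact two-sided permutation p = 0.6, where 0.1 is the smallest possible). With library sizes alone 1 was called lower, without eri-6[e-f]_mut-16 replicate 2 the number was 4, and without prg-1_hrde-1 replicate 1 it was 5. F39E9.7 had 1.69, 1.96 and 3.23 CPM of mRNA in prg-1_hrde-1, against 5.46, 6.52 and 4.94 CPM in eri-6[e-f]_mut-16 (-1.30 ± 0.22, adjusted p = 2.77e-05). For W04B5.1 the mRNA was 7.69, 11.01 and 13.7 CPM in prg-1_hrde-1, against 21.2, 26.4 and 25.6 CPM in eri-6[e-f]_mut-16 (-1.18 ± 0.27). Y37E11B.2, whose small RNA differed by the fold given above, had overlapping mRNA libraries at 3.36, 4.03 and 5.07 CPM in prg-1_hrde-1, against 4.23, 7.62 and 5.07 CPM in eri-6[e-f]_mut-16 (-0.45 ± 0.21) and was not called. The gene W04B5.2 was higher in every prg-1_hrde-1 library, with 1.87, 2.87 and 1.95 CPM in prg-1_hrde-1, against 1.39, 1.45 and 0.641 CPM in eri-6[e-f]_mut-16, and did not reach the 2-fold limit (0.90 ± 0.33).

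Targets of the WAGO branch and of HRDE-1, also listed from general knowledge with earlier results of these data known, differed widely among themselves. All 14 were tested, 5 were called higher in small RNA (35.7%, near the 36.4% of all features) and 0 lower (1 at an unadjusted p below 0.05), and the median of 0.60 was −0.07 with library sizes alone. They took 0.380, 0.521 and 0.520% of small RNA counts in prg-1_hrde-1, against 0.165, 0.152 and 0.160% in eri-6[e-f]_mut-16. The 5 that were called are these. Y17D7B.4 had 1427, 2130.5 and 1904 CPM in prg-1_hrde-1, against 4.53, 2.21 and 2.83 CPM in eri-6[e-f]_mut-16 (9.25 ± 0.27). K02E2.11 had 1002, 1062 and 1068 CPM in prg-1_hrde-1, against 6.11, 4.63 and 4.27 CPM in eri-6[e-f]_mut-16 (7.73 ± 0.13), and F16B4.6 had 539, 610.0 and 562 CPM in prg-1_hrde-1, against 24.4, 20.02 and 23.4 CPM in eri-6[e-f]_mut-16 (4.67 ± 0.07). ZC15.3 (2.80 ± 0.09) and R03D7.2 (2.37 ± 0.10) were also called. In each of these 5 the mean of prg-1_hrde-1 was above that of eri-6[e-f]. The 9 that were not called had a mean below that of eri-6[e-f] in both strains. F15D4.5 had 362, 435 and 417 CPM in prg-1_hrde-1, against 415, 401 and 411 CPM in eri-6[e-f]_mut-16 (-0.02 ± 0.07), and eri-6[e-f] averaged 2860.0 ± 48.9 CPM. Small RNA of bath-45, a gene often used as a marker of piRNA-dependent silencing, was 69.8, 67.8 and 75.1 CPM in prg-1_hrde-1, against 52.4, 42.0 and 48.0 CPM in eri-6[e-f]_mut-16 (0.58 ± 0.08), and eri-6[e-f] averaged 3768 ± 80.0 CPM. C38D9.2 had 351, 425 and 388 CPM in prg-1_hrde-1, against 260.0, 244 and 255 CPM in eri-6[e-f]_mut-16 (0.62 ± 0.07), with eri-6[e-f] at 646 ± 28.0 CPM. F07B7.1 and F07B7.2 (0.29 ± 0.09 and 0.29 ± 0.08) have the same counts in all libraries as W09B7.1 and W09B7.2, so 4 of the 14 cannot be told from a copy.

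In mRNA 0 of these targets were called higher in prg-1_hrde-1 by edgeR (0 at an unadjusted p below 0.05). Of 13 tested, 6 were called lower (46.2%, beside 12% of all features), with a median of −0.69. With library sizes alone 2 were called lower, and without prg-1_hrde-1 replicate 3 the number was 3. ZC15.3 had 27.4, 23.03 and 14.04 CPM in prg-1_hrde-1, against 111, 101 and 89.3 CPM in eri-6[e-f]_mut-16 (-2.23 ± 0.25, adjusted p = 5.35e-08), and eri-6[e-f] averaged 0.0820 ± 0.0174 CPM. For F16B4.6 the mRNA was 5.13, 8.14 and 6.72 CPM in prg-1_hrde-1, against 22.7, 23.03 and 26.9 CPM in eri-6[e-f]_mut-16 (-1.86 ± 0.22), with eri-6[e-f] at 0.208 ± 0.0505 CPM. C38D9.2 had 90.9, 60.01 and 49.7 CPM in prg-1_hrde-1, against 196, 125 and 102 CPM in eri-6[e-f]_mut-16 (-1.08 ± 0.26), with eri-6[e-f] at 0.389 ± 0.370 CPM. All 3 were thus far above eri-6[e-f] in both strains and higher in eri-6[e-f]_mut-16. F15D4.5, at 222, 157 and 107 CPM in prg-1_hrde-1, against 309.8, 199 and 157 CPM in eri-6[e-f]_mut-16 (-0.45 ± 0.27), and bath-45, at 29.5, 37.5 and 28.1 CPM in prg-1_hrde-1, against 32.6, 18.3 and 40.9 CPM in eri-6[e-f]_mut-16 (0.05 ± 0.26), overlapped between the strains, while eri-6[e-f] averaged 2.84 ± 0.372 and 3.93 ± 1.54 CPM. A difference that was not called does not show that the strains are alike.

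**Figure D2:**
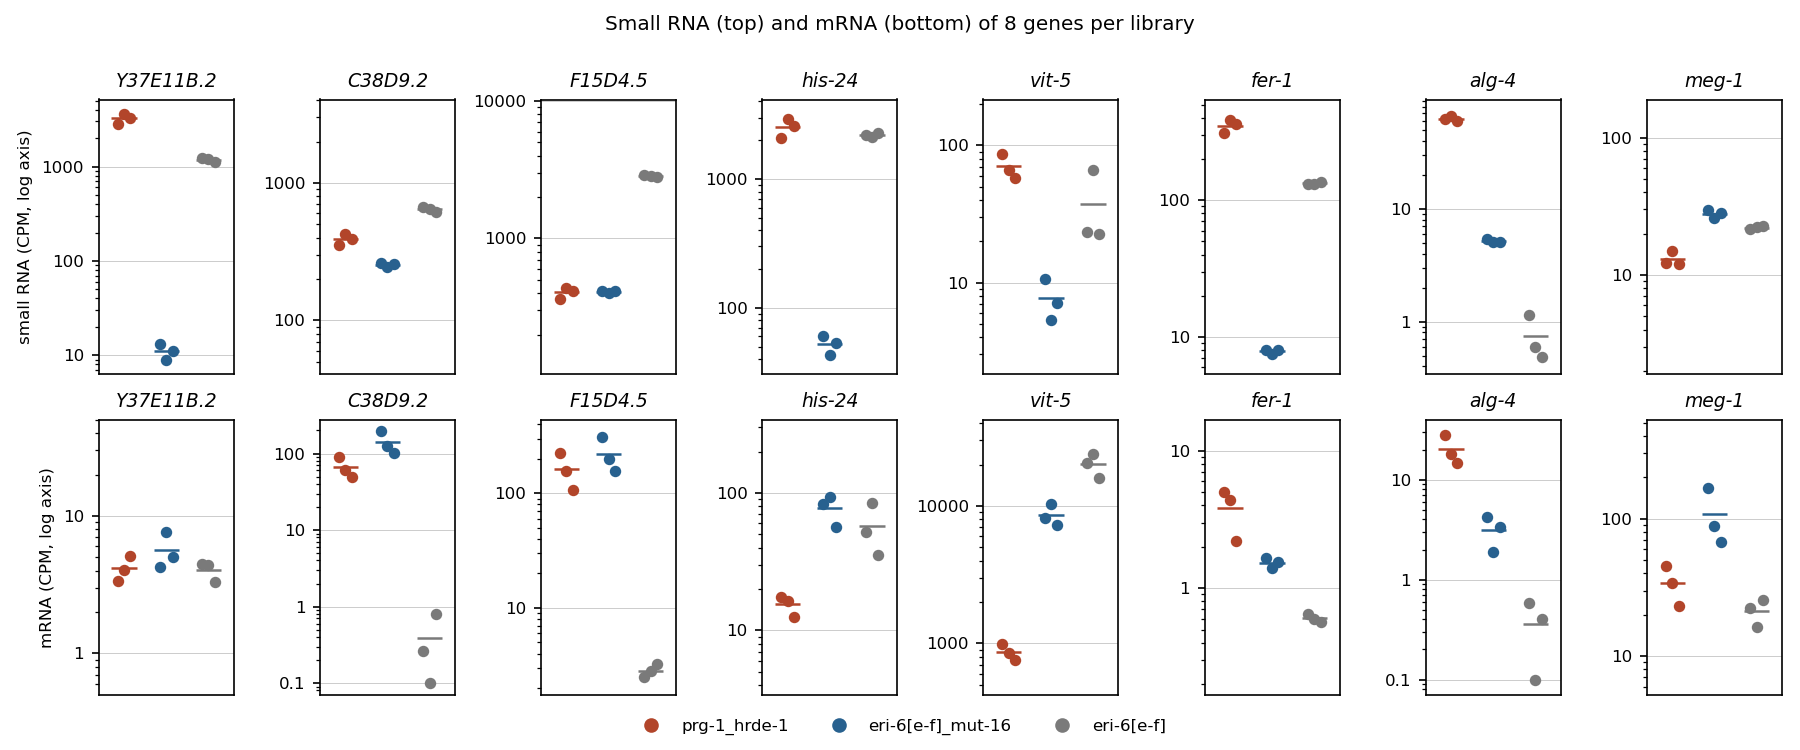
Level of 8 genes (CPM, log axes of at least 2 decades with a range per panel) in small RNA (top row) and mRNA (bottom row) in the 3 libraries of prg-1_hrde-1, of eri-6[e-f]_mut-16 and of eri-6[e-f]; points are libraries and bars are means. Small RNA of Y37E11B.2, his-24, vit-5, fer-1 and alg-4 is higher in prg-1_hrde-1 than in eri-6[e-f]_mut-16, while mRNA of his-24, vit-5 and meg-1 is lower and that of fer-1 and alg-4 higher.

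Many histone genes had more small RNA and less mRNA in prg-1_hrde-1 than in eri-6[e-f]_mut-16. Of 72 core histone and related genes tested in small RNA, 53 were called higher (73.6%) and 2 lower (2.78%), beside 36.4 and 4.03% of all features. Their median log2 fold change was 1.52, and their summed level was 5244 to 6903 CPM in prg-1_hrde-1, against 1146 to 1346 CPM in eri-6[e-f]_mut-16. In mRNA 29 of 64 were called lower (45.3%) and 1 higher (1.56%), beside 12 and 24.8% of all features. The median was −0.96, and the summed level was 520 to 663 CPM in prg-1_hrde-1, against 1146 to 1371 CPM in eri-6[e-f]_mut-16. With library sizes alone 30 were higher in small RNA and 11 lower in mRNA. Many histone genes are near copies: 26 of the 72 had the same counts as another member in all libraries, which leaves 58 distinct profiles, so values of single core histone genes are uncertain. Replication-dependent histone mRNAs lack poly(A) tails in large part, which makes their level after oligo(dT) selection a partial measure. In small RNA his-25 had 733, 992 and 950.4 CPM in prg-1_hrde-1, against 5.89, 5.45 and 4.73 CPM in eri-6[e-f]_mut-16 (7.38 ± 0.13) and no called difference in mRNA (-0.45 ± 0.31). The gene his-16 had 113, 169 and 135 CPM in prg-1_hrde-1 and 0 counts in all eri-6[e-f]_mut-16 libraries, at least 2804-fold higher against a floor of 3 counts over the group, and its mRNA was called lower (-1.08 ± 0.29). The reverse was seen for his-9 and his-13, copies with the same counts, which had 0 counts in all prg-1_hrde-1 libraries and 10.1, 8.73 and 9.79 CPM in eri-6[e-f]_mut-16.

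Linker histones bind the DNA between nucleosomes and have polyadenylated mRNA. Of these genes 4 of 8 tested were higher in small RNA (50%, beside 36.4% of all features) and 5 of 8 lower in mRNA (62.5%, beside 12%). Small RNA of his-24, an H1 gene, was 2087, 2933 and 2577 CPM in prg-1_hrde-1, against 60.2, 43.1 and 53.4 CPM in eri-6[e-f]_mut-16 (5.61 ± 0.12). Its mRNA was 17.6, 16.4 and 12.4 CPM in prg-1_hrde-1, against 83.0, 93.7 and 56.1 CPM in eri-6[e-f]_mut-16 (-2.33 ± 0.28, adjusted p = 1.37e-07). The H1 gene hil-3 had 443, 555 and 489 CPM of small RNA in prg-1_hrde-1, against 9.36, 7.59 and 8.08 CPM in eri-6[e-f]_mut-16 (5.91 ± 0.10) and 8.12, 7.003 and 7.39 CPM of mRNA in prg-1_hrde-1, against 28.6, 32.9 and 17.7 CPM in eri-6[e-f]_mut-16 (-1.81 ± 0.24). In both, all libraries of a strain lay on the same side in each assay. The gene hil-8 had a still larger small RNA difference, with 9859.6, 11755 and 10858 CPM in prg-1_hrde-1, against 14.4, 4.76 and 8.41 CPM in eri-6[e-f]_mut-16 (10.28 ± 0.30), and its mRNA overlapped at 2.76, 2.76 and 2.03 CPM in prg-1_hrde-1, against 2.52, 2.41 and 2.37 CPM in eri-6[e-f]_mut-16 (0.05 ± 0.23). For hil-2 and hil-4 the mRNA was lower (-1.40 ± 0.20 and -1.44 ± 0.24) with small RNA not called (-0.04 ± 0.08 and 0.28 ± 0.09). The other linker histone gene called lower in mRNA, hil-7, changed sign when eri-6[e-f]_mut-16 replicate 2 was left out. In core histones the largest mRNA differences were those of his-45 (-2.58 ± 0.55), his-66 (-2.48 ± 0.42) and his-67 (-2.40 ± 0.19), and his-70, an H3 variant gene, was the 1 called higher (2.52 ± 0.32).

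Genes of sperm were higher in prg-1_hrde-1 in both assays. These are whole animals, so more cells of a type and more RNA per cell cannot be told apart, here or for the other tissues. Among the major sperm proteins, the cytoskeletal proteins of the crawling worm sperm, 31 of 32 tested were called higher in small RNA (median 3.71) and 33 of 33 in mRNA (median 2.34). Their summed mRNA was 2691 to 3764 CPM in prg-1_hrde-1, against 532 to 710 CPM in eri-6[e-f]_mut-16 and 39 to 98 CPM in eri-6[e-f]. Of the spe and fer genes, found as mutants with defective sperm, 31 of 35 were higher in small RNA (median 2.79) and 30 of 35 in mRNA (median 2.67), and their summed mRNA was 318 to 347 CPM in prg-1_hrde-1, against 152 to 220 CPM in eri-6[e-f]_mut-16. Members of small sperm-specific families, 94 in the files, gave 44 higher and 1 lower of 46 tested in small RNA and 51 higher and 1 lower of 75 in mRNA. Of the tested members of these lists, 88.6 to 96.9% were higher in small RNA, beside 36.4% of all features tested. In mRNA 68 to 100% were higher, beside 24.8%. A gene can pass the filter on low counts through a strain where it is high. These shares therefore describe tested members only, and 46 of the 94 small family members were tested in small RNA.

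Small RNA of fer-1, a ferlin needed for membrane fusion in maturing sperm, was 308, 386 and 359 CPM in prg-1_hrde-1, against 8.07, 7.56 and 8.02 CPM in eri-6[e-f]_mut-16 (5.48 ± 0.09), and its mRNA was 5.02, 4.35 and 2.21 CPM in prg-1_hrde-1, against 1.66, 1.401 and 1.54 CPM in eri-6[e-f]_mut-16 (1.33 ± 0.26). For spe-55 the small RNA was 243, 423 and 237 CPM in prg-1_hrde-1, against 6.11, 10.01 and 9.004 CPM in eri-6[e-f]_mut-16 (5.13 ± 0.23) and the mRNA 11.02, 10 and 12.4 CPM in prg-1_hrde-1, against 2.09, 1.27 and 1.86 CPM in eri-6[e-f]_mut-16 (2.71 ± 0.28). Of the msp genes, msp-31 had 20.2, 21.05 and 25.2 CPM of small RNA in prg-1_hrde-1, against 0.302, 0.656 and 0 CPM in eri-6[e-f]_mut-16 (5.84 ± 0.81) and 155, 197 and 224 CPM of mRNA in prg-1_hrde-1, against 24.5, 30.7 and 36.4 CPM in eri-6[e-f]_mut-16 (2.65 ± 0.24). In these 3 genes no library of one strain overlapped with the other strain in either assay. The sperm protein phosphatases gsp-3 and gsp-4 were higher in small RNA (3.49 ± 0.19 and 3.53 ± 0.16) and in mRNA (2.35 ± 0.22 and 2.27 ± 0.18). So were comp-1, a sperm kinase that affects competition between sperm (2.54 ± 0.18 and 3.46 ± 0.25), and fog-3, which directs germ cells to sperm (1.49 ± 0.18 and 1.53 ± 0.25). The gene fog-1, which acts in the same decision, went against them, with 12.2, 10.9 and 9.31 CPM of mRNA in prg-1_hrde-1, against 33.0, 19.5 and 20.9 CPM in eri-6[e-f]_mut-16 (-1.18 ± 0.32) and small RNA that was not called (-0.46 ± 0.12). Other exceptions were ssp-37, lower in mRNA (-1.54 ± 0.25), and spe-5, with more small RNA (1.51 ± 0.12) and mRNA that was not called (-0.45 ± 0.20).

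Oocyte and eggshell genes went the other way in mRNA. Of 30 tested, 20 were called lower (66.7%, beside 12% of all features) and 0 higher in prg-1_hrde-1 (0 at an unadjusted p below 0.05). The median was −1.11, beside 0.00 for all features. Their summed mRNA was 7199 to 8822 CPM in prg-1_hrde-1, against 14350 to 25690 CPM in eri-6[e-f]_mut-16 and 7259 to 11890 CPM in eri-6[e-f]. The highest sum, 25690 CPM, was that of eri-6[e-f]_mut-16 replicate 1, and without that library 10 were called lower. With library sizes alone the number was 9, with the 6 libraries alone 12. The gene cpg-1, for an eggshell proteoglycan, had 386, 339.9 and 168 CPM of mRNA in prg-1_hrde-1, against 1998, 1003 and 799 CPM in eri-6[e-f]_mut-16 (-2.09 ± 0.32, adjusted p = 5.62e-06). The gene lin-41, for an RNA-binding regulator of oocyte maturation, had 84.6, 81.4 and 38.9 CPM in prg-1_hrde-1, against 485, 197 and 193 CPM in eri-6[e-f]_mut-16 (-2.09 ± 0.35). The gene nos-2, a Nanos gene translated in the germline precursors of the embryo, had 56.2, 53.7 and 79.4 CPM in prg-1_hrde-1, against 204, 225 and 271 CPM in eri-6[e-f]_mut-16 (-1.88 ± 0.23). In all 3 genes the lowest eri-6[e-f]_mut-16 library was above the highest prg-1_hrde-1 library. In small RNA 1 of the 30 was called higher (perm-4, 2.11 ± 0.90, not called without replicate 1) and 1 lower, egg-5, a pseudophosphatase of the oocyte-to-embryo transition, at 506, 529 and 494 CPM in prg-1_hrde-1, against 1451, 1426 and 1436 CPM in eri-6[e-f]_mut-16 (-1.496 ± 0.08), and the list median was −0.51. Sperm gene mRNA moved in the opposite direction to oocyte gene mRNA in these libraries, and its part in the result was not tested. Genes of germline proliferation and meiosis were called lower in 5 of 34 in mRNA (14.7%, near the 12% of all features, and 1 with library sizes alone) and in 0 of 34 in small RNA, where 25 were lower and 4 higher at an unadjusted p below 0.05. Named by fold, the lowest was sygl-1, a target of Notch in germline stem cells, with 29.5, 29.2 and 14.02 CPM in prg-1_hrde-1, against 114, 59.8 and 63.7 CPM in eri-6[e-f]_mut-16 (-1.71 ± 0.27), followed by gld-1 (-1.34 ± 0.29), a translational repressor of the meiotic germline.

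P granules and Z granules are the perinuclear bodies in which Argonautes and their cofactors gather. Of 17 genes for their parts, 7 were called lower in mRNA (41.2%, beside 12% of all features) and 0 higher. The median was −0.66, and 1 gene was called lower with library sizes alone. Without eri-6[e-f]_mut-16 replicate 1 the number was 2, and without prg-1_hrde-1 replicate 3 it was 4. In small RNA 3 were lower (17.6%, beside 4.03%) and 1 higher (5.88%, beside 36.4%). The 3 were meg-1, meg-3 and meg-4, genes of disordered proteins that assemble P granules in the embryo. The gene meg-1 had 12.3, 14.9 and 12.08 CPM of small RNA in prg-1_hrde-1, against 29.7, 25.8 and 28.3 CPM in eri-6[e-f]_mut-16 (-1.07 ± 0.08) and 45.2, 34.1 and 23.3 CPM of mRNA in prg-1_hrde-1, against 169, 89.3 and 67.5 CPM in eri-6[e-f]_mut-16 (-1.66 ± 0.34). The gene meg-3 had 13.9, 14.1 and 13.7 CPM of small RNA in prg-1_hrde-1, against 31.01, 34.9 and 34.2 CPM in eri-6[e-f]_mut-16 (-1.26 ± 0.07) and 24.2, 18.01 and 8.79 CPM of mRNA in prg-1_hrde-1, against 78.9, 35.4 and 31.6 CPM in eri-6[e-f]_mut-16 (-1.52 ± 0.34). These genes were thus lower in both assays with no overlap. Messenger RNA of pgl-3 was also called lower (-1.08 ± 0.32), and that of pgl-1 (-0.25 ± 0.28), glh-1 (-0.22 ± 0.28), znfx-1 (-0.10 ± 0.31) and deps-1 (-0.51 ± 0.28) was not called, with overlap in each. The gene with more small RNA was pid-2, which codes for a Z granule protein, with 1342, 1754 and 1562 CPM in prg-1_hrde-1, against 712, 717 and 742 CPM in eri-6[e-f]_mut-16 (1.10 ± 0.10).

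Argonaute genes did not move together. Of 24 tested in small RNA, 8 were called higher (33.3%, beside 36.4% of all features) and 3 lower (12.5%, beside 4.03%), or 7 and 2 without replicate 1. Of 23 tested in mRNA 3 were higher (13%, beside 24.8%) and 5 lower (21.7%, beside 12%). The medians were 0.15 and −0.44, and both changed sign under another scaling. The genes alg-3 and alg-4, of Argonautes that bind 26G-RNAs in the sperm-forming germline, were higher in both assays. Small RNA of alg-4 was 62.0, 65.7 and 59.9 CPM in prg-1_hrde-1, against 5.36, 5.07 and 5.06 CPM in eri-6[e-f]_mut-16 (3.60 ± 0.16), and its mRNA was 28.2, 18.2 and 14.8 CPM in prg-1_hrde-1, against 4.23, 1.88 and 3.34 CPM in eri-6[e-f]_mut-16 (2.71 ± 0.30). The gene alg-3 had 54.1, 61.8 and 53.6 CPM of small RNA in prg-1_hrde-1, against 5.51, 4.07 and 5.92 CPM in eri-6[e-f]_mut-16 (3.48 ± 0.13) and 30.95, 22.2 and 14.9 CPM of mRNA in prg-1_hrde-1, against 3.91, 3.11 and 4.75 CPM in eri-6[e-f]_mut-16 (2.54 ± 0.26). The gene wago-10 behaved alike (3.14 ± 0.20 and 1.84 ± 0.35). These 3 are the Argonautes called higher in mRNA. The Argonautes sago-1 and sago-2, which act in somatic RNA interference, gained small RNA (3.59 ± 0.22 and 3.13 ± 0.79) with mRNA not called (0.32 ± 0.19 and -0.50 ± 0.18). The gene ppw-1, for an Argonaute of germline RNA interference, had 858, 1031 and 935 CPM of small RNA in prg-1_hrde-1, against 480.4, 449 and 442 CPM in eri-6[e-f]_mut-16 (1.04 ± 0.06), and alg-1, a microRNA Argonaute, had 11.62, 10.7 and 11.97 CPM in prg-1_hrde-1, against 4.90, 4.07 and 4.403 CPM in eri-6[e-f]_mut-16 (1.36 ± 0.11). The gene alg-5 was lower (-1.004 ± 0.06, not called without replicate 1). The gene wago-5 was called higher with replicate 1 only (2.08 ± 0.78, and -0.62 without it). In mRNA, besides prg-1, ergo-1 was lower, with 81.4, 74.7 and 32.8 CPM in prg-1_hrde-1, against 314, 127 and 140.3 CPM in eri-6[e-f]_mut-16 (-1.62 ± 0.31), as were alg-2 (-1.30 ± 0.21), wago-4, a germline Argonaute of inherited silencing (-1.02 ± 0.23), and wago-11 at low levels (-1.79 ± 0.46). Without eri-6[e-f]_mut-16 replicate 1, 1 Argonaute was called lower. Messenger RNA of csr-1, at 395, 325 and 298 CPM in prg-1_hrde-1, against 398, 188 and 214 CPM in eri-6[e-f]_mut-16, overlapped (0.35 ± 0.29).

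Few genes of the other pathway parts passed the test. Their counts are to be read beside the 12% of all features called lower in mRNA and the 36.4% higher and 4.03% lower in small RNA. Of 17 genes of the mutator focus and of 22G-RNA amplification, 0 were called higher and 3 lower (17.6%) in mRNA. These were rde-3, the nucleotidyltransferase that adds tails to RNA interference templates, with 33.5, 32.05 and 25.96 CPM in prg-1_hrde-1, against 84.9, 92.8 and 80.2 CPM in eri-6[e-f]_mut-16 (-1.495 ± 0.21), the endonuclease gene rde-8, with 25.3, 25.6 and 27.8 CPM in prg-1_hrde-1, against 70.2, 62.5 and 70.05 CPM in eri-6[e-f]_mut-16 (-1.37 ± 0.18), and its relative nyn-2 (-1.08 ± 0.33). In small RNA, mut-16 and rrf-2 (3.07 ± 0.13) were higher and nyn-2 lower (-1.01 ± 0.07, not called without replicate 1). The polymerase genes ego-1 (0.25 ± 0.37) and rrf-1 (-0.24 ± 0.38) overlapped in mRNA. Of 20 genes of piRNA production, 5 were called lower in mRNA (25%), namely prg-1, tofu-5 (-1.32 ± 0.23), and tost-1, pid-1 and erh-2, which belong to the PETISCO complex that processes piRNA precursors. The gene tost-1 had 39.9, 55.7 and 53.7 CPM in prg-1_hrde-1, against 101, 197 and 124 CPM in eri-6[e-f]_mut-16 (-1.502 ± 0.24), pid-1 18.7, 19.9 and 25.3 CPM in prg-1_hrde-1, against 38.7, 69.4 and 52.5 CPM in eri-6[e-f]_mut-16 (-1.33 ± 0.21), and erh-2 31.7, 44.3 and 45.4 CPM in prg-1_hrde-1, against 75.1, 97.1 and 91.5 CPM in eri-6[e-f]_mut-16 (-1.12 ± 0.21). Of 20 nuclear RNA interference and H3K9 methylation genes, enri-1 (-1.04 ± 0.25) and enri-2 (-1.54 ± 0.23) were lower in mRNA (10%), and hrde-1 and hpl-1 (-1.01 ± 0.15, not called without replicate 1) in small RNA. In the ERI list of 12 genes, alg-3 and alg-4 were higher in both assays and ergo-1 lower in mRNA, and dcr-1, rrf-3 and eri-1 were not called in either assay. Of 7 genes of the CSR-1 pathway 0 were called in either assay by edgeR, and at an unadjusted p below 0.05 there were 1 higher and 5 lower in small RNA and 0 and 2 in mRNA. In the list of double-stranded RNA uptake, sid-3, a kinase needed for that uptake, was lower in mRNA (-1.42 ± 0.18). The mRNA medians of the mutator, piRNA, nuclear, ERI and CSR-1 lists, at −0.39, −0.50, −0.37, −0.23 and −0.39, were above 0 with library sizes alone. Few 21U-RNA entries passed the filter on low counts. Of 15363 in the files 22 did, 7 were called higher and 5 lower, and 1052 of 1204 with counts had the same counts as another entry, so they are not described further.

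All 6 vitellogenin genes, which code for the yolk that the intestine secretes to oocytes, were called higher in small RNA and lower in mRNA. Of all features 36.4% were higher in small RNA and 12% lower in mRNA. The gene vit-5 had 86.1, 66.2 and 57.9 CPM of small RNA in prg-1_hrde-1, against 10.6, 5.38 and 7.098 CPM in eri-6[e-f]_mut-16 (3.24 ± 0.69, adjusted p = 0.000426). Its mRNA was 982, 847 and 753 CPM in prg-1_hrde-1, against 8198, 10318 and 7297 CPM in eri-6[e-f]_mut-16 (-3.32 ± 0.24, adjusted p = 5.61e-11). The gene vit-1 had the largest small RNA difference (4.71 ± 0.38) and vit-3 the largest in mRNA (-3.52 ± 0.22). The 6 took 1.17, 0.964 and 0.896% of mRNA counts in prg-1_hrde-1, against 4.27, 4.88 and 4.1% in eri-6[e-f]_mut-16 and 7.2 to 9.0% in eri-6[e-f]. Their share of small RNA was 0.0340, 0.0302 and 0.0310% of counts in prg-1_hrde-1, against 0.00753, 0.00272 and 0.00416% in eri-6[e-f]_mut-16. Vitellogenin mRNA and oocyte mRNA were both lower in prg-1_hrde-1, and eri-6[e-f], with the most vitellogenin mRNA of the 3 strains, was not the highest in oocyte mRNA.

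Other intestinal genes repeated part of this pattern. Of 18 genes in the list, 13 of 16 tested were higher in small RNA (81.25%, beside 36.4% of all features) and 0 lower. In mRNA 7 of 18 were lower (38.9%, beside 12%) and 0 higher (2 at an unadjusted p below 0.05). The gene cpr-1, for a cathepsin B-like protease, had 112, 89.2 and 138 CPM of mRNA in prg-1_hrde-1, against 639, 1588 and 574 CPM in eri-6[e-f]_mut-16 (-3.05 ± 0.43) and 6.13, 4.15 and 5.42 CPM of small RNA in prg-1_hrde-1, against 0.604, 0.863 and 0.657 CPM in eri-6[e-f]_mut-16 (2.82 ± 0.72). The gene asp-1, for an aspartic protease, had 1818, 1624 and 1572 CPM of mRNA in prg-1_hrde-1, against 4434, 10006 and 5702 CPM in eri-6[e-f]_mut-16 (-2.01 ± 0.30), and lys-7, a lysozyme, had 17.8, 15.02 and 23.4 CPM in prg-1_hrde-1, against 90.5, 109 and 64.1 CPM in eri-6[e-f]_mut-16 (-2.23 ± 0.30). The intestinal transcription factor gene elt-2 had 19.5, 19.9 and 25.1 CPM of mRNA in prg-1_hrde-1, against 13.5, 19.05 and 11.61 CPM in eri-6[e-f]_mut-16 (0.54 ± 0.19) and the peptide transporter gene pept-1 had 253, 197 and 241 CPM in prg-1_hrde-1, against 149, 109.6 and 136 CPM in eri-6[e-f]_mut-16 (0.81 ± 0.19), and neither was called. Small RNA of pept-1 was 14.4, 18.4 and 19.5 CPM in prg-1_hrde-1, against 0.302, 0.311 and 0.131 CPM in eri-6[e-f]_mut-16 (6.04 ± 0.32). Of the muscle genes, 7 of 19 were higher in small RNA (36.8%, and 6 without replicate 1), near the 36.4% of all features (33.2% without replicate 1). In mRNA 1 was higher (5%) and 5 lower (25%) of 20, beside 24.8 and 12% of all features. The gene unc-22, for a giant muscle kinase, was among the small RNA calls only with replicate 1 (1.52 ± 0.60, and 0.19 without it).

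Cuticle collagens carried more small RNA in prg-1_hrde-1 and in part more mRNA. Of 177 in the files, 67 of 89 tested in small RNA were called higher (75.3%, beside 36.4% of all features) and 1 lower. The median was 3.31, or 3.16 with the 4 that had 0 counts in one strain at their bound. Their summed small RNA was 8154 to 11130 CPM in prg-1_hrde-1, against 32.03 to 69.19 CPM in eri-6[e-f]_mut-16. Much of the sum was col-111, with 4309, 5897 and 5606 CPM in prg-1_hrde-1, against 3.92, 0.725 and 1.31 CPM in eri-6[e-f]_mut-16 (11.59 ± 0.38), and col-157, with 1488, 1962 and 1763 CPM in prg-1_hrde-1, against 1.06, 0.966 and 1.45 CPM in eri-6[e-f]_mut-16 (10.59 ± 0.14). Both had overlapping mRNA levels, 3.38, 5.57 and 9.90 CPM in prg-1_hrde-1, against 4.39, 3.59 and 5.07 CPM in eri-6[e-f]_mut-16 for col-111 (0.54 ± 0.39) and 4.53, 5.17 and 12.8 CPM in prg-1_hrde-1, against 3.48, 4.03 and 4.88 CPM in eri-6[e-f]_mut-16 for col-157 (0.87 ± 0.40). In mRNA 65 of 141 collagens were higher (46.1%, beside 24.8% of all features) and 4 lower (2.84%, beside 12%), with a median of 0.96. Their summed mRNA was 42950 to 46450 CPM in prg-1_hrde-1, against 30830 to 38430 CPM in eri-6[e-f]_mut-16, and 23110 to 61060 CPM in eri-6[e-f], which spans both. As a share not scaled by TMM, collagens took 5.95, 5.94 and 5.85% of mRNA counts in prg-1_hrde-1, against 2.78, 3.53 and 3.40% in eri-6[e-f]_mut-16. The gene col-133 had 404, 356 and 660.2 CPM in prg-1_hrde-1, against 47.1, 39.3 and 63.4 CPM in eri-6[e-f]_mut-16 (3.24 ± 0.33) and col-7 136, 172 and 215 CPM in prg-1_hrde-1, against 19.7, 20.8 and 35.2 CPM in eri-6[e-f]_mut-16 (2.79 ± 0.35). Of 78 collagens tested in both assays, 26 were higher in both (33.3%, beside 16.4% of all features tested in both). Another 34 were higher in small RNA with mRNA not called, beside 2229 of all 12920 features tested in both.

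Neuronal genes were mostly higher in mRNA, and neuropeptide genes had members higher in each assay. In mRNA 11 of 20 neuronal genes were called higher (55%, beside 24.8% of all features) and 0 lower (2 at an unadjusted p below 0.05). The median was 1.02. The gene snt-1, for the synaptotagmin of synaptic vesicles, had 9.69, 11.99 and 8.27 CPM in prg-1_hrde-1, against 1.82, 2.23 and 2.37 CPM in eri-6[e-f]_mut-16 (2.22 ± 0.27), and rgef-1, a widely used pan-neuronal gene, had 3.29, 4.16 and 3.71 CPM in prg-1_hrde-1, against 0.856, 0.963 and 1.22 CPM in eri-6[e-f]_mut-16 (1.88 ± 0.26). The gene unc-25, for the enzyme that makes GABA, had 12, 10.9 and 15.04 CPM in prg-1_hrde-1, against 4.33, 2.32 and 3.85 CPM in eri-6[e-f]_mut-16 (1.85 ± 0.23). In small RNA 7 of 15 neuronal genes were called higher (46.7%, beside 36.4% of all features) and 1 lower, with a median of 1.11. Without replicate 1 these were 6 and 1 of 16, with a median of 0.33. Of 15 tested in both assays, 4 were higher in both (26.7%, beside 16.4% of all features tested in both). Small RNA of the 3 genes just named was not called, at -0.50 ± 0.57, -0.26 ± 0.22 and -0.54 ± 0.62. The neuronal genes snb-1 (-0.56 ± 0.18) and unc-119 (-0.54 ± 0.19) had negative mRNA values that were not called. Among neuropeptide and insulin-like genes, 55 of 124 were higher (44.4%, beside 24.8% of all features) and 8 lower (6.45%, beside 12%) in mRNA. In small RNA 19 of 42 were higher (45.2%, beside 36.4%) and 1 lower. Their summed small RNA was 1899 to 2411 CPM in prg-1_hrde-1, against 28.9 to 32.8 CPM in eri-6[e-f]_mut-16. The gene nlp-12 had 406, 582 and 495 CPM of small RNA in prg-1_hrde-1, against 0.453, 0.345 and 0.263 CPM in eri-6[e-f]_mut-16 (10.45 ± 0.17), flp-16 had 234, 299.7 and 264 CPM in prg-1_hrde-1, against 1.06, 0.828 and 1.45 CPM in eri-6[e-f]_mut-16 (7.97 ± 0.12), and ins-17 had 248, 282 and 259 CPM in prg-1_hrde-1, against 1.96, 1.55 and 1.25 CPM in eri-6[e-f]_mut-16 (7.38 ± 0.12). In mRNA these 3 overlapped between the strains (-0.02 ± 0.33, 0.26 ± 0.30 and -0.56 ± 0.23).

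Large gene families differed in the share of members with more small RNA in prg-1_hrde-1. Of the nuclear hormone receptors 102 of 183 (55.7%) were higher in small RNA and 5 lower, of the detoxification enzymes (cytochromes P450, UDP-glucuronosyltransferases and glutathione S-transferases) 88 of 141 (62.4%) and 2, and of the C-type lectins 63 of 114 (55.3%) and 6, all above the 36.4% of all features. Of the F-box genes, an expanded family of protein-degradation adaptors, 125 of 309 (40.5%) were higher and 23 lower, and of the BATH and MATH genes 29 of 76 (38.2%) and 3, both near the share over all features. Of the chemoreceptor genes 94 of 357 (26.3%) were higher and 49 (13.7%) lower, the first below and the second above the 36.4 and 4.03% of all features. In the F-box and chemoreceptor families differences ran far in both directions. The gene fbxb-14 had 7837, 10675 and 8682 CPM in prg-1_hrde-1, against 46.1, 41.3 and 41.5 CPM in eri-6[e-f]_mut-16 (7.72 ± 0.12). Its mRNA had 2.89, 3.37 and 3.98 CPM in prg-1_hrde-1, against 33.0, 35.1 and 42.6 CPM in eri-6[e-f]_mut-16 (-3.43 ± 0.26). That fold change was among the 12 lowest of called features with no overlap and a mean of at least 10 CPM. The gene fbxa-135 had 0.129, 0.148 and 0.113 CPM of small RNA in prg-1_hrde-1, against 15.2, 14.4 and 17.7 CPM in eri-6[e-f]_mut-16 (-6.80 ± 0.24). The gene gst-43 had 1143, 1458 and 1241 CPM in prg-1_hrde-1, against 1.58, 1.52 and 0.723 CPM in eri-6[e-f]_mut-16 (9.92 ± 0.19), and nhr-15 had 3232, 4449 and 3559 CPM in prg-1_hrde-1, against 15.2, 10.5 and 10.8 CPM in eri-6[e-f]_mut-16 (8.29 ± 0.14) with mRNA called lower (-1.26 ± 0.20). Ribosomal protein genes were near even in small RNA, with 0 of 30 called by edgeR for the small subunit (9 higher and 6 lower at an unadjusted p below 0.05) and 3 of 48 higher (6.25%) for the large. In mRNA 1 of 30 and 10 of 48 were called lower (3.33 and 20.8%, beside 12% of all features). The count for the large subunit was 0 with library sizes alone and between 5 and 20 when single libraries were left out.

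**Figure D3:**
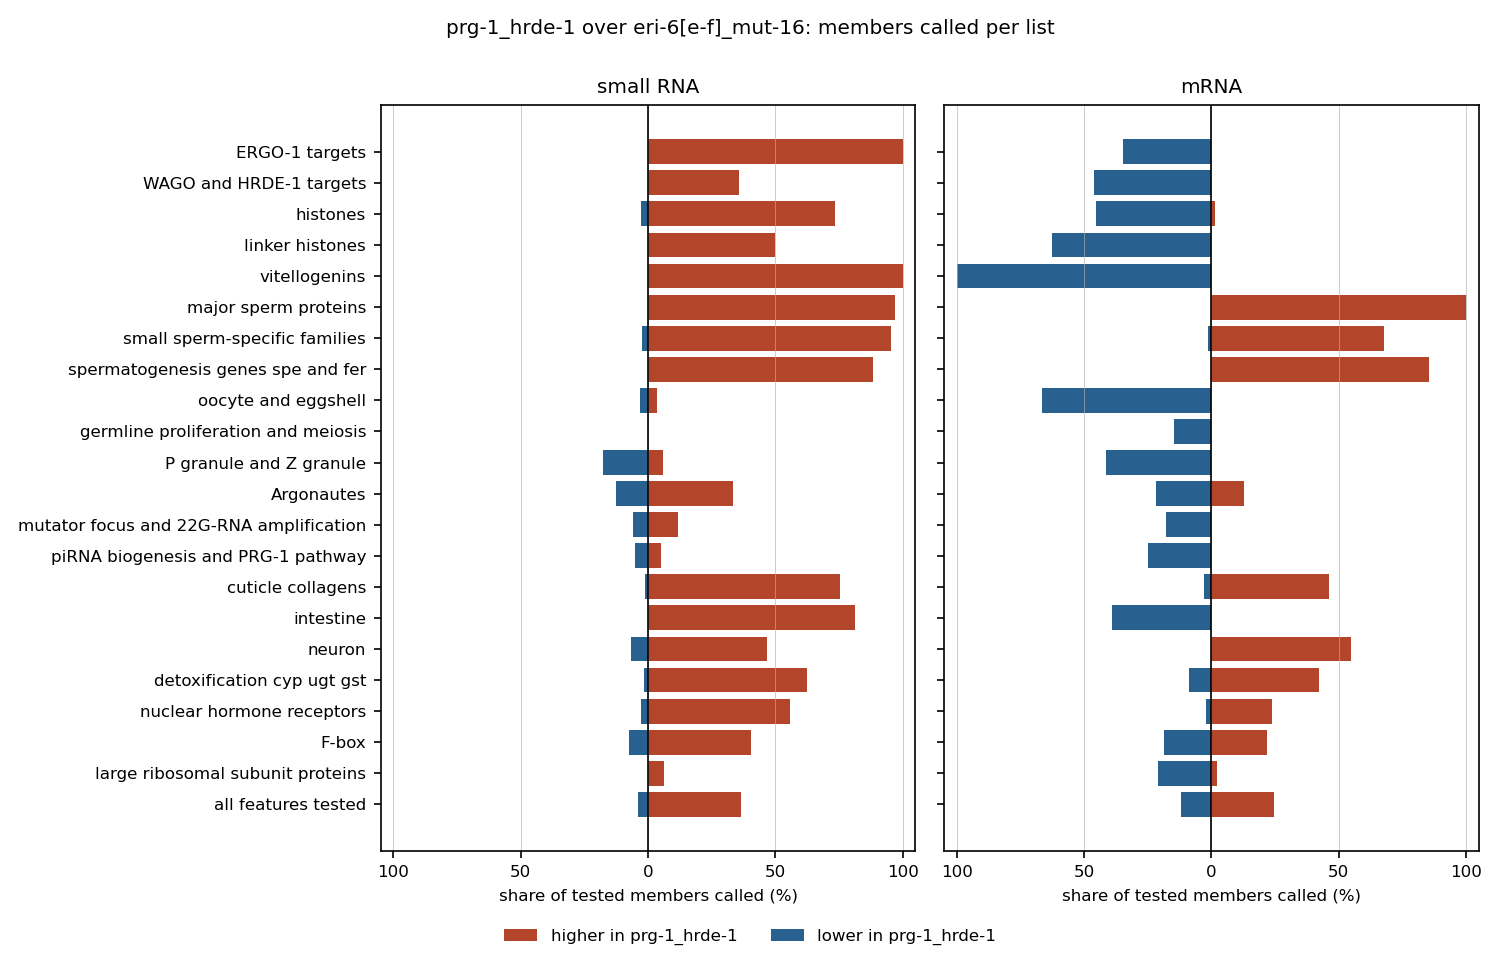
Share of the tested members of 21 gene lists, and of all features tested, that were called higher (right of 0) or lower (left of 0) in prg-1_hrde-1 than in eri-6[e-f]_mut-16, in small RNA (left) and mRNA (right), in %. ERGO-1 targets, histones and vitellogenins point right in small RNA and left in mRNA, the sperm lists point right in both, and the bottom bar gives 36.4% higher and 4.03% lower in small RNA and 24.8% and 12% in mRNA for all features.

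The largest differences in small RNA, among features called with and without replicate 1 and with a mean of at least 10 CPM, were on the side of prg-1_hrde-1. Of the 12 largest, 7 had 0 counts in all eri-6[e-f]_mut-16 libraries. T06A1.6 had 155, 219 and 169 CPM in prg-1_hrde-1, at least 3652-fold above the floor of 3 counts, and D2024.10 had 81.7, 97.6 and 98.3 CPM, at least 1779-fold. For K05C4.8 the values were 2198, 2995 and 2756 CPM in prg-1_hrde-1, against 1.51, 0.0690 and 0.263 CPM in eri-6[e-f]_mut-16 (12.46 ± 0.32), and for ZK1025.1 6618, 9094 and 7153 CPM in prg-1_hrde-1, against 3.55, 0.897 and 2.17 CPM in eri-6[e-f]_mut-16 (11.94 ± 0.34). The opposite extreme was R05A10.4, with 0.774, 0.296 and 0.452 CPM in prg-1_hrde-1, against 124, 109 and 87.9 CPM in eri-6[e-f]_mut-16 (-7.81 ± 0.26), and F22B8.9, with 0.258, 0.185 and 0.564 CPM in prg-1_hrde-1, against 51.9, 71.8 and 48.6 CPM in eri-6[e-f]_mut-16 (-7.68 ± 0.28). The gene rsbp-1, for a partner of RGS signalling proteins, had 2.26, 1.41 and 1.69 CPM in prg-1_hrde-1, against 60.2, 58.4 and 51.5 CPM in eri-6[e-f]_mut-16 (-5.03 ± 0.11) with mRNA that was not called (0.59 ± 0.18). The genes srh-227 and srh-228, chemoreceptor genes with the same counts, had 0.194, 0.148 and 0.339 CPM in prg-1_hrde-1, against 47.4, 34.2 and 33.2 CPM in eri-6[e-f]_mut-16 (-7.57 ± 0.26).

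In mRNA the most strongly raised genes at a mean of at least 10 CPM included warf-1, with 175, 239 and 342 CPM in prg-1_hrde-1, against 4.66, 4.77 and 6.86 CPM in eri-6[e-f]_mut-16 (5.54 ± 0.34), and Y41C4A.32, with 445, 484 and 721 CPM in prg-1_hrde-1, against 14.6, 17.7 and 19.6 CPM in eri-6[e-f]_mut-16 (4.99 ± 0.26). The gene pdfr-1, for the receptor of the PDF neuropeptides, had 47.2, 38.7 and 50.99 CPM of mRNA in prg-1_hrde-1, against 2.46, 2.36 and 1.22 CPM in eri-6[e-f]_mut-16 (4.48 ± 0.24) and 185, 209 and 186 CPM of small RNA in prg-1_hrde-1, against 1.28, 0.587 and 0.920 CPM in eri-6[e-f]_mut-16 (7.83 ± 0.15), both higher. The gene argk-1, for an arginine kinase, had 169, 149 and 216 CPM in prg-1_hrde-1, against 12.3, 6.92 and 14.05 CPM in eri-6[e-f]_mut-16 (4.01 ± 0.30). No library of the 2 strains overlapped in these 4 genes. The lowest was nssp-7, with 1.49, 1.22 and 1.49 CPM of mRNA in prg-1_hrde-1, against 20.5, 27.8 and 26.6 CPM in eri-6[e-f]_mut-16 (-4.15 ± 0.22), whose small RNA was 1419.5, 1716 and 1668 CPM in prg-1_hrde-1, against 2.19, 1.73 and 1.91 CPM in eri-6[e-f]_mut-16 (9.72 ± 0.12). T26E3.7 paired 1.29, 1.51 and 1.76 CPM of mRNA in prg-1_hrde-1, against 17.7, 21.2 and 22.6 CPM in eri-6[e-f]_mut-16 (-3.75 ± 0.23) with 2249.6, 2825 and 2488 CPM of small RNA in prg-1_hrde-1, against 24.5, 14.1 and 17.2 CPM in eri-6[e-f]_mut-16 (7.11 ± 0.14), and Y67D8C.23 paired 1.80, 1.67 and 2.40 CPM of mRNA in prg-1_hrde-1, against 17.7, 14.5 and 23.2 CPM in eri-6[e-f]_mut-16 (-3.23 ± 0.25) with 759, 1082 and 1005 CPM of small RNA in prg-1_hrde-1, against 12.4, 3.56 and 5.85 CPM in eri-6[e-f]_mut-16 (7.13 ± 0.30). Of the 12 lowest in mRNA, vit-3, vit-4 and vit-5, cpr-1 and fbxb-14 are described above.

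Of the 12920 features tested in both assays 6022 were called in neither. Among those called in both the commonest pairing was more small RNA with more mRNA. Small RNA was called higher for 4656 (36%) and lower for 427 (3.3%) of them, and mRNA higher for 2743 (21.2%) and lower for 1718 (13.3%). Higher in both were 2121 features, which is 45.6% of those higher in small RNA and 77.3% of those higher in mRNA. A further 2229 were higher in small RNA with mRNA not called. Higher in small RNA and lower in mRNA were 306 (6.57% of those higher in small RNA and 17.8% of those lower in mRNA), the reverse held for 36 (8.43% of those lower in small RNA and 1.31% of those higher in mRNA), and 183 were lower in both (42.9 and 10.7%). Without replicate 1 the 4 counts were 2028, 297, 59 and 188 of 13121, with 33.8% higher and 3.62% lower in small RNA. Sperm genes lay in the first of these classes, with 29 of 30 major sperm proteins, 42 of 44 small sperm-specific family members and 29 of 35 spe and fer genes higher in both. Of all features tested in both assays 16.4% were in that class. The second class held all 6 vitellogenins, 21 of 64 histones, 8 of 23 ERGO-1 targets and 4 of 16 intestinal genes, beside 2.37% of all features tested in both.

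Single genes show the size of these pairings. The gene mif-1, for a homolog of macrophage migration inhibitory factor, had 3729, 4532 and 4354 CPM of small RNA in prg-1_hrde-1, against 4.602, 0.897 and 0.986 CPM in eri-6[e-f]_mut-16 (11.14 ± 0.51) and 15.5, 19.42 and 26.8 CPM of mRNA in prg-1_hrde-1, against 34.1, 54.7 and 40.8 CPM in eri-6[e-f]_mut-16 (-1.07 ± 0.24). The gene asah-1, for an acid ceramidase homolog, had 699.6, 969 and 839 CPM of small RNA in prg-1_hrde-1, against 2.34, 0.207 and 0.526 CPM in eri-6[e-f]_mut-16 (10.01 ± 0.34) and 8.47, 8.67 and 9.07 CPM of mRNA in prg-1_hrde-1, against 41.0, 101 and 42.0 CPM in eri-6[e-f]_mut-16 (-2.82 ± 0.37). The gene saeg-2 had 11257, 14564 and 12905 CPM of small RNA in prg-1_hrde-1, against 23.01, 12.05 and 14.7 CPM in eri-6[e-f]_mut-16 (9.63 ± 0.19) and 8.25, 7.32 and 9.99 CPM of mRNA in prg-1_hrde-1, against 38.9, 41.4 and 41.2 CPM in eri-6[e-f]_mut-16 (-2.25 ± 0.17). Each had more small RNA and less mRNA with no overlap. Among genes higher in both, cyp-33C8, a cytochrome P450, had 32.7, 35.1 and 38.9 CPM of small RNA in prg-1_hrde-1, against 0.453, 0.0345 and 0 CPM in eri-6[e-f]_mut-16 (8.09 ± 0.35) and 67.8, 73.1 and 103 CPM of mRNA in prg-1_hrde-1, against 6.48, 7.79 and 5.84 CPM in eri-6[e-f]_mut-16 (3.60 ± 0.21). Among genes lower in both, arrd-13, of the arrestin family, had 29.1, 36.6 and 32.1 CPM of small RNA in prg-1_hrde-1, against 130.4, 130.1 and 136 CPM in eri-6[e-f]_mut-16 (-2.01 ± 0.07) and 26.99, 24.5 and 28.9 CPM of mRNA in prg-1_hrde-1, against 99.2, 69.8 and 70.05 CPM in eri-6[e-f]_mut-16 (-1.57 ± 0.22), and dnj-15, a DnaJ chaperone, had 12.07, 13.9 and 12.6 CPM of small RNA in prg-1_hrde-1, against 44.2, 48.8 and 52.5 CPM in eri-6[e-f]_mut-16 (-1.91 ± 0.11) and 17.6, 21.6 and 20.2 CPM of mRNA in prg-1_hrde-1, against 56.5, 65.6 and 63.7 CPM in eri-6[e-f]_mut-16 (-1.65 ± 0.20).

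**Figure D4:**
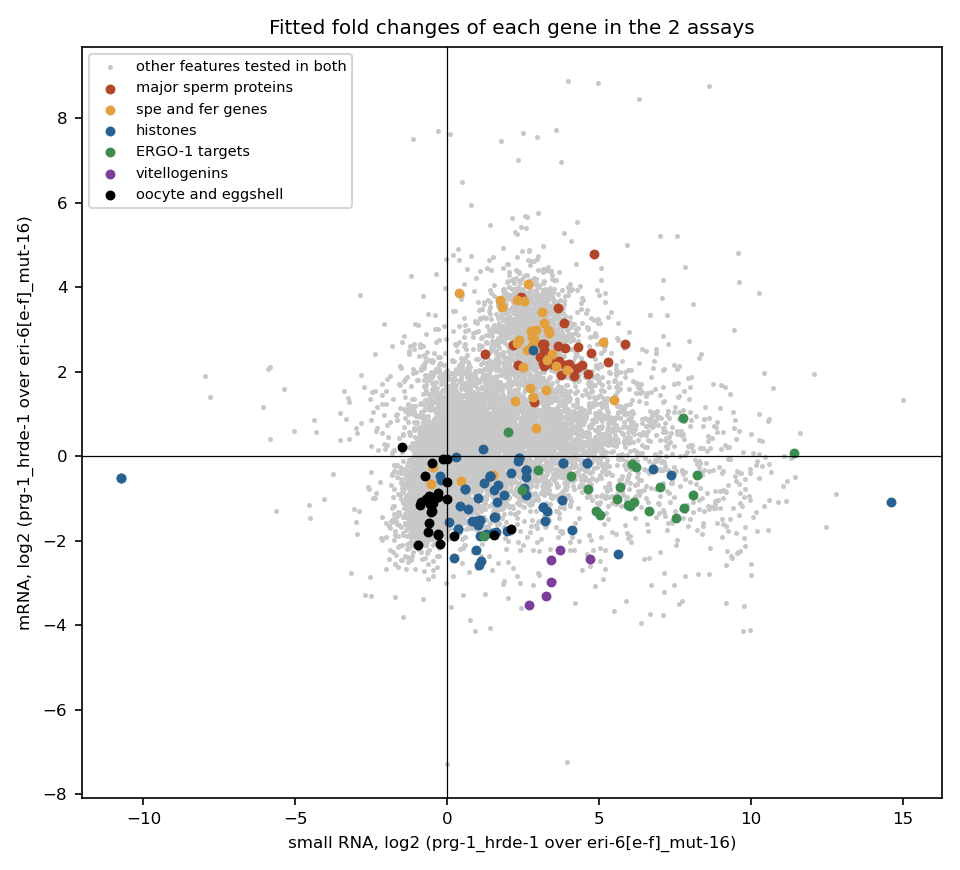
Fitted log2 fold change of prg-1_hrde-1 over eri-6[e-f]_mut-16 in small RNA (horizontal) and mRNA (vertical) of the 12920 features tested in both assays, with 6 gene lists in colour. Sperm genes lie at the upper right, vitellogenins and most histones and ERGO-1 targets at the lower right, and oocyte genes below 0 near the middle. Points beyond about 11 on the horizontal axis in either direction include genes with 0 counts in a strain, whose fitted value depends on the prior count.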

How the data were processed

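Each library is a list of sequence names with expected counts, as deposited by the authors, for which cutadapt, HISAT2 and Salmon are named in the submitters' processing notes. Genome build, annotation, tool versions and strand setting were not found in the sources used here. Counts of entries that repeat a name were summed and all were rounded, and 45682 of 46003 names were matched to RefSeq symbols. All 24 second-set libraries of an assay entered one edgeR 4.0.16 quasi-likelihood fit (R 4.3.3) with TMM scaling, edgeR's default expression filter and 1 term per strain. Adjusted p-values are Benjamini-Hochberg over all features tested. A floor of 3 counts over a group bounds folds against 0. A fit of the first set, with 11746 features tested, gave the prg-1 and ergo-1 lists. The procedure was tested on simulated data with 200 genes changed in each assay, up and down alike. Of these 195 were recovered in each assay, and 3 other genes were called in small RNA and 2 in mRNA. So few and balanced changes do not test the scaling where many features differ in the same direction, as in small RNA here.

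Genes named are the 7 mutated loci, the 12 largest and 12 smallest fold changes per assay (called, no overlap, at least 10 CPM), up to 3 per direction of each list, the genes called in both assays with the largest summed change, and every tested gene of the RNA interference lists that is described. A few others were added after their values were seen (eri-6[e-f] levels, members of lists that were not called, and the called genes F39E9.7 and unc-25). Members and lists were chosen with earlier results of these data known. Depth was 11417384 to 38473158 counts in small RNA and 16305343 to 44302033 in mRNA. Alternatives were other scalings, DESeq2 1.42.0, other filters and libraries left out.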

Additional observations from a re-analysis of the deposited data

How the results depend on the processing

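For the named genes the direction of most differences held, while counts moved with the scaling and with how many libraries shared the estimate of spread. Over all features the excess of higher over lower calls in small RNA did not hold with library sizes alone (4528 higher and 4597 lower). For the 620 features with less small RNA in prg-1_hrde-1, the count was 4597 with library sizes alone, 224 with microRNA scaling (284 when prg-1_hrde-1 replicate 1 was also left out), 398 with only the 5 libraries without that replicate, 313 with only the 6 libraries, and 557 to 724 with single libraries left out. The 5598 higher became 1200 with microRNA scaling, which rests on that replicate (4447 when it was also left out, and 5238 to 5833 with libraries left out). In mRNA, library sizes alone gave 548 lower instead of 1840 (1780 to 2006 with libraries left out, and 3573 to 4118 higher). 

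Of the lists called in other libraries, members higher under microRNA scaling were 213 of the list with less small RNA in prg-1 (main 1187, and 745 with 5 libraries), 1101 of that with less in sosi-1_mut-16 (3378), 360 of that with more in prg-1 (1550) and 31 of that with more in sosi-1_mut-16 (1144). When replicate 1 was left out as well these were 812, 2661, 1449 and 1061. Their ranges with single libraries left out were 1044 to 1273, 3095 to 3478, 1529 to 1544 and 1130 to 1140. Members lower, in the same order of lists, were 858, 667, 63 and 664 with library sizes alone, 81, 97, 3 and 65 with microRNA scaling, 106, 74, 4 and 97 when replicate 1 was left out as well, and 130, 78, 9 and 89 with 6 libraries, against 234, 185, 14 and 148. With 5 libraries the 2 lists from sosi-1_mut-16 gave 119 and 94, and the ranges with libraries left out were 205 to 274, 141 to 249, 12 to 19 and 130 to 158.

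Of features called in both assays, 2121 higher in both became 247 with microRNA scaling (1841 without replicate 1 as well, and 2078 to 2188 with libraries left out). The 306 with more small RNA and less mRNA became 123 with library sizes alone and 155 with microRNA scaling (259 without replicate 1 as well, and 263 to 339). The 36 of the reverse kind became 240, 18 and, with 6 libraries, 23 (33 to 63), and the 183 lower in both became 10 with microRNA scaling, 54 without replicate 1 as well and 102 with 6 libraries (162 to 218).

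Deviations of same-numbered libraries correlated at 0.026, 0.064 and -0.026 in small RNA and 0.526, -0.056 and 0.182 in mRNA. Those of differently numbered libraries lay between -0.09 and 0.056 in small RNA and between -0.477 and 0.324 in mRNA. The largest mRNA value was thus that of the libraries numbered 1. With 3 libraries a side these values cannot show whether libraries were paired. A replicate block in the 6 libraries gave 4418 higher and 304 lower in small RNA, 4079 and 1281 in mRNA, 124 lower in the first list and 73 and 88 lower in those from sosi-1_mut-16, and 22 and 101 in the last 2 classes of both assays.

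Without eri6.1 and eri.67 the difference in share of small RNA was 0.03688 percentage points for major sperm proteins and 0.0296 for vitellogenins. With libraries left out, the differences in share ranged from 4.923 to 5.827 for pseudogenes, 0.3518 to 0.399 for long noncoding RNAs, 0.2728 to 0.3404 for histones, 0.03315 to 0.03479 for major sperm proteins and 0.02581 to 0.0283 for vitellogenins in small RNA, and from 0.01834 to 0.04019, 0.00724 to 0.01305, -0.04028 to -0.03148, 0.3282 to 0.3788 and -3.561 to -3.178 in mRNA. Single genes that changed sign after a call were mir-49 (-1.282 with microRNA scaling and without replicate 1, and -1.354 to 10.23 with libraries left out), wago-5 (-0.5345, -1.247 with microRNA scaling alone and -0.6176 to 2.869 with libraries left out), unc-22 (-0.3844 with microRNA scaling) and, in mRNA, hil-7 (0.4456 without eri-6[e-f]_mut-16 replicate 2, and down to -3.335 with other libraries left out). The cause was not tested. Depth limits single features below about 1 CPM, where a library holds few counts.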
